A study of Mus musculus with 30 samples.

Results

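The ventral prostate (VP) of mice kept for 32 weeks on a normolipidic diet with soybean oil (SO) as its fat was compared with that of mice kept on the same diet for 12 weeks. All 5 SO mice at each time were used, which are 10 of the 30 mice in the study, and every gene of their count tables entered the comparison. The mice were C57BL/6 males that received the diet from weaning, and the labels name no altered gene and no agent other than the diet. The other 20 mice received linseed oil (LO) or pork fat (PF) in the place of soybean oil for the same times, 5 mice per diet and time, and serve here only to show where the SO mice differ. The mice at 32 weeks were also the older ones, and neither the labels nor the methods say whether the 2 ages were dissected, extracted and sequenced together. Time on the diet, age and any batch therefore cannot be told apart in any value below. The labels number the mice but give no litter or cage, so the p-values measure the spread between these mice.

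The VP is a gland of branched ducts whose tall luminal cells make and secrete proteins of the seminal fluid under androgens. Such cells load much of their mRNA with a few secreted products and rely on the endoplasmic reticulum (ER), where chaperones fold the new proteins and coated vesicles carry them on to the Golgi. The ducts lie in smooth muscle and stroma, where lymphocytes and macrophages are also found. Interferons switch on a set of antiviral and antigen-presenting genes in epithelial and immune cells alike.

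Between 29125565 and 38549367 read pairs were counted on genes in each SO mouse, and counts of any 2 mice of the same time differed by more than sampling noise. Markers of luminal and basal epithelium and of smooth muscle were present in all 10 mice. The seminal vesicle products Svs2, Svs4 and Svs5 had at most 5 counts in any mouse, and the epididymal gene Lcn5 had none. A few mice carried traces of neighbouring tissue. The fat cell gene Adipoq reached 70.0 CPM in 12-week mouse 5 and 37.7 in 32-week mouse 5, and the skeletal muscle gene Myh4 reached 51.6 and 92.5 CPM in 32-week mice 3 and 4. In 32-week mouse 5, 2.68% of the counts lay on Gm42418, a gene model that overlaps a ribosomal RNA sequence, against 0.0904% to 0.306% in the others. CPM are counts scaled to a common library size after correction by TMM, a method that assumes that most genes do not change.

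At 32 weeks, 848 of 15605 tested genes (5.43%) were higher and 194 (1.24%) were lower than at 12 weeks by edgeR's quasi-likelihood test at a Benjamini-Hochberg adjusted p-value under 0.05, and these are the genes said below to rise or fall. Gene lists are described by their members with enough counts to be tested. The filter asks for enough counts in at least 5 mice, so a gene can enter through the mice of 1 time alone. Such a gene is favoured to be higher at that time, and how many did so was not counted. The 2 directions differed in size. Of the genes that rose, 548 changed more than 2-fold and their median log2 fold change was 1.28, whereas 12 of the genes that fell changed more than 2-fold and their median was −0.33. Regardless of the test, the lowest mouse of one time lay above the highest of the other in 811 genes (5.2%) that were higher and in 342 (2.19%) that were lower at 32 weeks. The counts depended on single mice. They fell to 320 and 56 without 12-week mouse 4 and rose to 1266 and 474 without 32-week mouse 1, and they were also lower by more than 1.5 times in one or both directions without 12-week mouse 3 or 5 (448 and 73, 447 and 75) or without 32-week mouse 2, 3, 4 or 5 (582 and 105, 582 and 65, 553 and 77, 760 and 99). There were 303 genes that rose and 44 that fell whichever single mouse was left out.

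**Figure D1:**
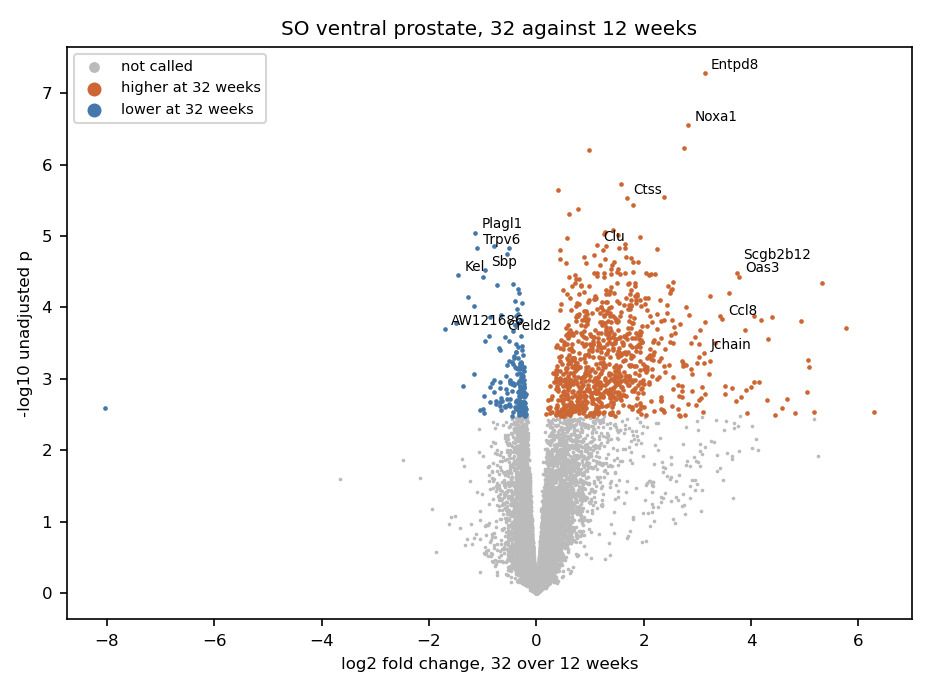
Each point is 1 of the 15605 genes tested in the 10 SO mice, with its log2 fold change (32 over 12 weeks) on the horizontal axis and −log10 of its unadjusted p-value on the vertical axis. Orange points are the 848 genes called higher and blue points the 194 called lower at 32 weeks, and the orange points reach farther from 0. The blue point at −8.03 is 9530053A07Rik, which rests on 1 mouse.

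The composition of the libraries changed with time. The 10 largest genes of each library took 28.5% to 34.7% of its counts at 12 weeks (mean 31.8% ± 2.55, SD, n = 5) and 22.3% to 25.9% at 32 weeks (23.6% ± 1.52, SD, n = 5), a difference of −8.20 percentage points (exact permutation test, two-sided, p = 0.00794, which is the smallest value 5 against 5 mice allow). The fall of a single gene was as large, at −8.32 percentage points of all counts (p = 0.00794 by the same exact test). Sbp (ENSMUSG00000024128; GRCm38, chromosome 17, 23941672 to 23945607) encodes the spermine-binding protein, a major androgen-dependent secretory product of the mouse VP. It took 18.6%, 17.4%, 21.1%, 21.1% and 23.5% of all counts in the 12-week mice 1 to 5 and 12.4%, 12.5%, 11.3%, 11.8% and 12.1% in the 32-week mice. The groups did not overlap and the 32-week mice were much closer to each other than the 12-week mice. The log2 change of Sbp in CPM was −0.95 ± 0.14 (SE) with an adjusted p of 0.009, and the call held with any 1 mouse left out. More genes reached 10 counts at 32 weeks (15531 to 16144, against 15320 to 15516), and the mitochondrial share was 4.62% to 6.56% against 4.32% to 4.78% (exact permutation test, two-sided, p = 0.0397), whose part in the results was not tested. Because so large a gene moved, the scaling matters: with libraries scaled by total counts alone the median log2 change of all genes is 0.19, the count of genes that rose becomes 2856 and that of genes that fell becomes 38 (98.7% of the calls upward, against 81.4%).

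Among the other secretory products, Azgp1 and Clu were called. Of the 29 secretory and prostate-enriched genes listed, 13 were tested, 2 fell (Sbp and Azgp1), 1 rose (Clu) and 10 were not called. The share that fell was 15.4%, beside 1.24% of all genes, and the share that rose was 7.69%, beside 5.43%. Of the 13, 8 had a value below 0 and 5 above, with a median log2 change of −0.20 (−0.013 with total counts). Spink1, a secreted trypsin inhibitor and the second most abundant transcript, had between 46517 and 64877 CPM at 12 weeks and between 29080 and 50237 at 32 weeks, with the groups overlapping and a fold of 0.715 (adjusted p = 0.0957). Clusterin (Clu) is a secreted chaperone that binds misfolded proteins outside the cell. Its values were 318, 317, 351, 293 and 261 CPM at 12 weeks and 640, 520, 607, 637 and 965 CPM at 32 weeks, so that every 32-week mouse was above every 12-week mouse. Clu rose 2.19-fold (log2 1.13 ± 0.15, SE, adjusted p = 0.00847), and this held with any 1 mouse left out. Azgp1, which encodes the secreted zinc-alpha-2-glycoprotein, had a fold of 0.767 (adjusted p = 0.038), a call that ended without 12-week mouse 1, 2, 3 or 4 or 32-week mouse 3 or 4 (adjusted p up to 0.0957). Among the 10 most abundant genes, Sbp and 5430419D17Rik fell and 8 were not called, with folds from 0.715 for Spink1 and 0.863 for 9530002B09Rik to 1.05 for mt-Co2. 5430419D17Rik had a fold of 0.628 (adjusted p = 0.0299), which passed the threshold only with all mice or without 12-week mouse 1 or 32-week mouse 1 (otherwise up to 0.0739).

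Genes of the ER and of its vesicle traffic leaned lower, by small amounts. In 5 lists (lumenal chaperones, the PERK-ATF4 branch and the IRE1-XBP1 branch of the unfolded protein response, translocation with N-glycan transfer, and ER-Golgi transport) 148 genes were tested, 22 fell (14.9%, beside 1.24% of all genes) and 1 rose, and 130 had a value below 0 with a median log2 change of −0.18. With total-count scaling, under which the median of all tested genes was 0.19, the median of the 148 genes turned to 0.0089, 3 genes fell and 6 rose. Of the 5 lists those of chaperones and of ER-Golgi transport (median −0.022) then stayed below 0. The direction of these lists is thus relative to the other genes. The chaperone list is the one with the largest share: 7 of 28 tested genes fell, 1 rose, and its median was −0.24 (−0.055 with total counts). Its summed level was 14072 to 16507 CPM at 12 weeks and 12253 to 12830 CPM at 32 weeks, without overlap.

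The members with the smallest p-values are given by mouse. Creld2, a lumenal protein of the ER that is induced by folding stress, had 151, 148, 161, 98.2 and 135 CPM at 12 weeks and 90.9, 81.3, 88.7, 87.7 and 91.2 CPM at 32 weeks. Only 12-week mouse 4 came near the 32-week values. Its log2 change was −0.66 ± 0.11 (SE) with an adjusted p of 0.0115. Derl3, a component of the degradation of misfolded ER proteins, had 136, 99.2, 101, 78.8 and 93.5 CPM against 65.8, 53.4, 69.6, 56.1 and 70.2 CPM and fell by 0.69 ± 0.14 (adjusted p = 0.0162). Ssr4, a subunit of the translocon-associated complex, had 306 to 361 CPM against 245 to 289 CPM and fell by 0.37 ± 0.07 (adjusted p = 0.0115). Outside the lists, Agr2, a disulfide isomerase of secretory epithelia, was among the genes with the smallest p-values. It had 655, 586, 640, 528 and 593 CPM at 12 weeks and 387, 387, 422, 397 and 458 CPM at 32 weeks, and it fell by 0.55 ± 0.08 (adjusted p = 0.009).

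The other chaperones that fell were Sdf2l1, Hyou1, Dnajc3, Manf, Pdia5 and Fkbp11, with folds from 0.689 for Sdf2l1 to 0.794 for Dnajc3. In translocation and glycan transfer Spcs2, Ostc, Rpn1 and Ost4 fell with Ssr4 (5 of 33), and in vesicle transport Sar1a, Copz2, Lman1, Mcfd2, Kdelr1, Sec22b and Surf4 fell (7 of 42). The kinase PERK itself (Eif2ak3, fold 0.825) was the only member of 25 to fall in its branch, and Derl1 (0.857) fell with Derl3 in the IRE1-XBP1 list of 21. Hspa5, the main lumenal chaperone, had 1310 to 1758 CPM against 1116 to 1312 CPM but did not pass the threshold (fold 0.773, adjusted p = 0.0522). The stress-induced factors Atf4 and Ddit3 were not called (folds 0.919 and 0.871, adjusted p = 0.64 and 0.62). The number of chaperones that fell was 1 to 3 without 12-week mouse 2, 3, 4 or 5 or 32-week mouse 2, 3 or 4. Of the 22 falls, Creld2, Derl3 and Ssr4 held with any 1 mouse left out. The other 19 were each lost without at least 1 mouse, at adjusted p-values up to 0.121, most often without 12-week mouse 4, 3 or 5 (18, 15 and 14 lost) or 32-week mouse 2, 3, 4 or 5 (16, 16, 12 and 10), and less often without 12-week mouse 2 or 1 (9 and 8) or 32-week mouse 1 (2). Mzb1, which rose 6.66-fold, is a chaperone of plasma cells and appears in the B cell list too.

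Promoters of these genes are shown because a known ER stress element lies in some of them. The element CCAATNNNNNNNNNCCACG (ERSE), searched on both strands in the 250 bases before the transcription start of RefSeq's GRCm38.p6 table, is present in 35 of 27025 genes with such a window (0.13%), in 8 of 25 genes of the chaperone list that have one (32.0%) and in 3 of 165 of the 194 genes that fell (1.82%). Capitals mark the match, which starts 126 bases before the start of Creld2, 105 before that of Dnajc3 and 156 before that of Derl3, and is read on the other strand in Creld2 and Derl3. A match is a description of letters and not a bound site.
Creld2, chr15:88819396-88819645, plus strand: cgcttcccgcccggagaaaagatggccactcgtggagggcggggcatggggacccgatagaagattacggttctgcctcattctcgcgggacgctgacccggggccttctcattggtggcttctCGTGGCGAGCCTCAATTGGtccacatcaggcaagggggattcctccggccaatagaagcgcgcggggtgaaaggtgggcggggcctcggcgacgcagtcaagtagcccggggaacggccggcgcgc
Dnajc3, chr14:118937682-118937931, plus strand: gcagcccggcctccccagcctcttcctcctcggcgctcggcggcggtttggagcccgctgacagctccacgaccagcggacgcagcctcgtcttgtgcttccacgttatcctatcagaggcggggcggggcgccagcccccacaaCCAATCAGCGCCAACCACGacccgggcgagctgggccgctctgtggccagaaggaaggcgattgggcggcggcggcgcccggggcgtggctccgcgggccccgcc
Derl3, chr10:75893148-75893397, plus strand: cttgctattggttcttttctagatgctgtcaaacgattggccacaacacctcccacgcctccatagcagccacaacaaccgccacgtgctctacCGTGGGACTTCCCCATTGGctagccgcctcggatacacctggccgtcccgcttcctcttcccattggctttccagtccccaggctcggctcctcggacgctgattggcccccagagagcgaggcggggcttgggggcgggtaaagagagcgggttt

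The genes that fell most were not ER genes. Among called genes with a mean of 2 CPM or more, a name and no overlap between the times, the largest falls were those of AW121686, Kel, Tacr3, Plagl1, Trpv6, Slc17a9, Sbp, Gnat2, Id4, Crabp1, Stc2 and Grik2, and their folds ran from 0.305 to 0.567. Trpv6 (ENSMUSG00000029868; chromosome 6, 41620624 to 41636405), the calcium-selective channel of transporting epithelia, had 552, 430, 528, 422 and 481 CPM at 12 weeks and 305, 241, 185, 171 and 216 CPM at 32 weeks, without overlap. Its log2 change was −1.11 ± 0.15 (SE) with an adjusted p of 0.00847. Kel, the membrane endopeptidase of the Kell blood group, is a neighbour of Trpv6 on chromosome 6 and had 22.1 to 40.4 CPM against 7.87 to 16.2 CPM (a fall of 1.46 ± 0.22, adjusted p = 0.009). Plagl1, an imprinted zinc finger regulator of growth, had 12.0, 11.5, 10.3, 11.4 and 13.0 CPM against 5.98, 6.13, 4.35, 3.88 and 6.19 CPM and fell by 1.13 ± 0.15 (adjusted p = 0.00847). Its groups were tight and well apart.

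AW121686 had 7.25 to 17.9 CPM against 2.05 to 6.70 CPM and fell by 1.71 ± 0.31 (adjusted p = 0.0133). The neurokinin receptor gene Tacr3, the vesicular nucleotide transporter gene Slc17a9, the inhibitor of DNA binding Id4 and the secreted glycoprotein gene Stc2 fell by 1.28, 0.99, 0.88 and 0.87 on the log2 scale, with adjusted p-values of 0.0104, 0.009, 0.0144 and 0.0117. Gnat2, a G protein subunit of cone photoreceptors that is low here, had 2.27 to 3.60 CPM against 1.10 to 1.77 CPM. Of the genes with the smallest p-values, the small GTPase gene Rab39b (fold 0.701) and Gm15471 (0.582) complete the list with Plagl1, Trpv6, Agr2 and Sbp. These calls held with any 1 mouse left out. Those of the retinoid carrier gene Crabp1 (fold 0.547, adjusted p = 0.0293) and the kainate receptor gene Grik2 (0.567, 0.0277) did not. Crabp1 was lost without 12-week mouse 3, 4 or 5 or 32-week mouse 2, 3, 4 or 5, and Grik2 without 12-week mouse 3, 4 or 5 or 32-week mouse 2, 3 or 5 (adjusted p up to 0.0789 and 0.0734). The 1 gene with a much larger fitted fall, 9530053A07Rik (log2 −8.03 ± 2.07, adjusted p = 0.0431), marks other prostate lobes and was named after its values were seen. Its level was 204 CPM in 12-week mouse 3, 10.7 in mouse 1 and at most 2.30 in the other 8. The call was lost without any single mouse except 12-week mice 2 and 5 (adjusted p up to 0.103). The same 12-week mouse 3 had 86.9 CPM of Tgm4, a product of other lobes, against 2.89 to 7.66 CPM in the rest.

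**Figure D2:**
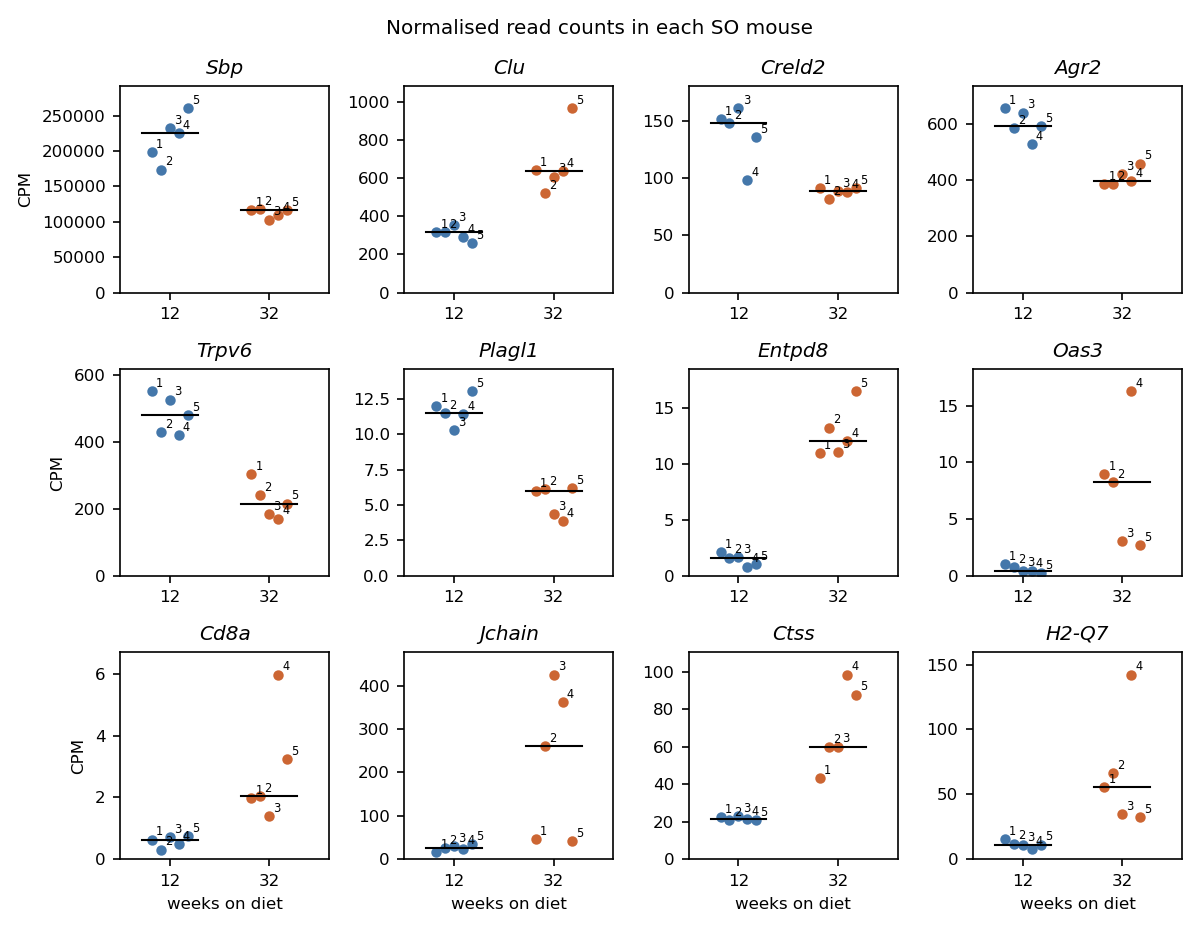
Each panel plots the TMM-scaled CPM of 1 gene in the 5 SO mice at 12 weeks (blue) and the 5 at 32 weeks (orange), with the mouse number beside each point, the group median as a bar and a linear axis from 0. Sbp, Creld2, Agr2, Trpv6 and Plagl1 are lower and the other 7 genes higher in every 32-week mouse, and for Jchain 32-week mice 1 and 5 (46.6 and 40.6 CPM) stay close to the 12-week mice.

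The gene with the smallest p-value was Entpd8 (ENSMUSG00000036813; chromosome 2, 25080304 to 25085716), a membrane enzyme that breaks down extracellular ATP. It had 2.11, 1.63, 1.64, 0.826 and 1.06 CPM at 12 weeks and 11, 13.2, 11.1, 12.0 and 16.5 CPM at 32 weeks. Each 32-week mouse was more than 5 times any 12-week mouse, and Entpd8 rose 8.78-fold (log2 3.13 ± 0.24, SE, adjusted p = 0.000814). Noxa1, an activator of NADPH oxidase, lies next to it on the opposite strand and overlaps its end. Noxa1 had 0.490 to 0.969 CPM against 3.79 to 8.10 CPM and rose 7.08-fold (adjusted p = 0.00216), and since the setting for strand in the counting is not given in the sources used here, reads in the overlap could belong to either gene. Sectm1a, a transmembrane ligand that stimulates T cells, rose 6.72-fold (0.259 to 0.554 CPM against 1.48 to 3.36 CPM, adjusted p = 0.00241).

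A further 2 genes with small p-values had no overlap. Tnfrsf1b, a receptor for tumour necrosis factor, had 9.83, 11.3, 10.3, 10.5 and 9.35 CPM against 17.6, 18.98, 19.2, 24.03 and 21.04 CPM and rose 1.97-fold (adjusted p = 0.00241). Serpinb1a, an inhibitor of neutrophil proteases, rose 2.998-fold (7.83 to 11.4 CPM against 19.2 to 37.0 CPM, adjusted p = 0.00574). Under the same conditions, and with immunoglobulin genes left out, the largest rises were those of Oas3, Scgb2b12, Ltf, Oas2, Ccl8, Entpd8, Jchain, Pou2af1, Ms4a4b, Cd79b, Scgb2b7 and Noxa1, from 13.7-fold down to 7.08-fold. Lactoferrin (Ltf), an iron-binding protein of secretions and neutrophils, had 3.51, 1.02, 7.36, 1.99 and 0.287 CPM against 7.76, 10.8, 34.6, 26.9 and 95.4 CPM. Its 12.5-fold rise (adjusted p = 0.0296) was lost without 12-week mouse 1, 2, 4 or 5 or 32-week mouse 3, 4 or 5 (adjusted p up to 0.0844).

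Many genes of immune cells and of immune signalling rose, though the mice with the highest levels differed between the lists. In 12 lists of them 351 genes were tested, 169 rose (48.1%, beside 5.43% of all genes), 1 fell (Derl3) and the median log2 change was 1.51, or 1.69 with total counts. These 169 are 19.9% of all genes that rose. In whole tissue, more cells of a type and more RNA per cell cannot be told apart. Of the neighbouring tissues, none of 15 fat cell genes was called (summed level 197 to 1349 CPM at 12 weeks and 154 to 644 at 32 weeks). Skeletal muscle genes had a median log2 change of 2.36 but 1 of 11 was called, and their summed level of 106 to 156 CPM at 12 weeks became 218, 73.5, 440, 402 and 78.1 CPM in 32-week mice 1 to 5. The part of such tissue in the immune lists was not tested.

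**Figure D3:**
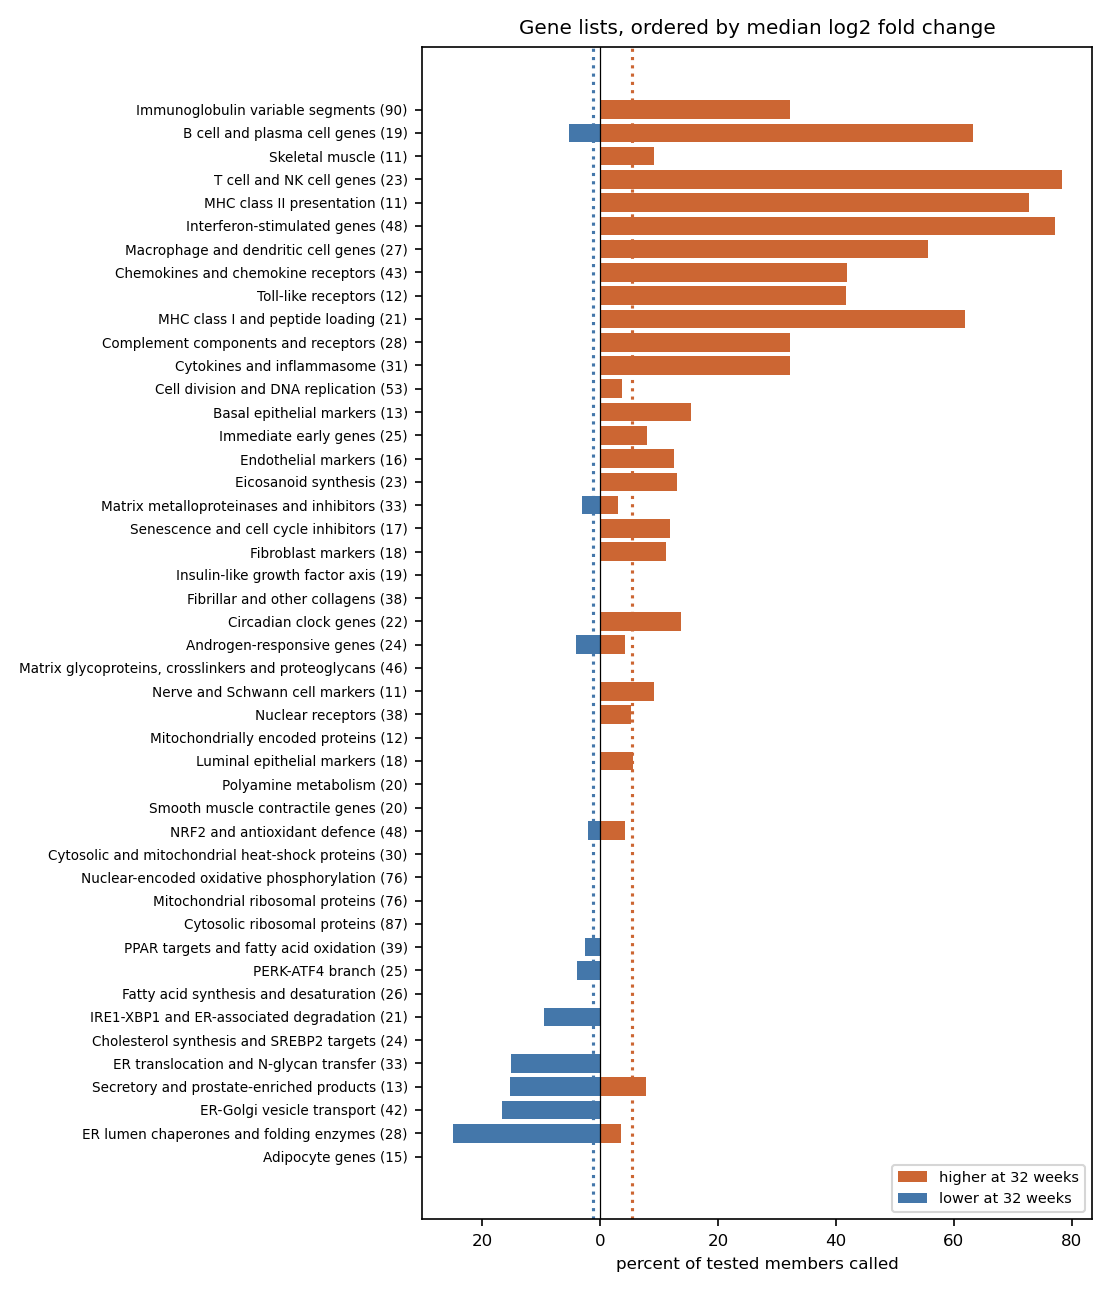
For each gene list with at least 10 tested members (number in brackets) the bars give the percent of tested members called higher (orange, to the right) and lower (blue, to the left) at 32 weeks, ordered by the median log2 fold change. Dotted lines mark the 5.43% and 1.24% of all tested genes, and the longest orange bars are those of T and NK cell genes (78.3%), interferon-stimulated genes (77.1%) and MHC class II presentation (72.7%).

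T cell and NK cell genes started from very low levels. Their summed level was 19.8 to 24.1 CPM at 12 weeks and 41.6, 49.6, 38.9, 129 and 55.5 CPM in 32-week mice 1 to 5, so that mouse 4 stood far above the others. Of 28 listed genes 23 were tested, 18 rose, none fell and the median log2 change was 1.93. Cd8a, the coreceptor of cytotoxic T cells, had 0.635, 0.308, 0.723, 0.490 and 0.748 CPM against 1.97, 2.03, 1.39, 5.99 and 3.24 CPM and rose 5.01-fold (log2 2.33 ± 0.41, SE, adjusted p = 0.0118). Klrb1c, the NK cell marker NK1.1, had 0.551 to 0.985 CPM against 1.56 to 2.89 CPM and rose 2.85-fold (adjusted p = 0.009). The chemokine receptor gene Cxcr6 and the pore-forming perforin gene Prf1 rose 4.29-fold and 3.37-fold (adjusted p = 0.009 and 0.00997). Cd3d, a chain of the T cell receptor complex, had 0.0616 to 0.132 CPM against 0.517, 1.08, 0.597, 4.82 and 1.1196 CPM and rose 14.8-fold (adjusted p = 0.0135). Its 12-week values lay under the count filter, so it entered the test through the 32-week mice alone. Its direction, and its part in the 18 that rose, were thus favoured by the filter.

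Cd3e, another chain of that complex, pointed the same way without passing (0.153 to 0.657 CPM against 0.881 to 4.43 CPM, fold 3.80, adjusted p = 0.0554). Ms4a4b, a membrane protein of T cells, had 0.337 to 0.756 CPM against 2.07, 2.45, 1.53, 10.99 and 2.83 CPM and rose 7.77-fold (adjusted p = 0.0145). The granzyme gene Gzmb rose 1.51-fold (3.29 to 5.09 CPM against 5.42 to 6.49 CPM, adjusted p = 0.0313), a call lost without 12-week mouse 1, 2, 3 or 4 or 32-week mouse 2 or 3 (adjusted p up to 0.0894). The rise of the list did not rest on 32-week mouse 4, without which 16 genes rose. It depended more on the 12-week mice, with 7, 10, 11 and 11 genes left without mouse 4, 5, 3 or 2.

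B cell and plasma cell genes divided the 32-week mice. The summed level was 444 to 609 CPM at 12 weeks and 926, 4077, 6329, 5262 and 596 CPM in 32-week mice 1 to 5. Mice 2, 3 and 4 were thus far above every 12-week mouse, mouse 1 was a little above them and mouse 5 was among them. Of 24 listed genes 19 were tested, 12 rose, 1 fell (Derl3, which is also an ER gene) and the median log2 change was 2.90. Ighm, the heavy chain of IgM, had 141, 182, 188, 208 and 238 CPM against 501, 2117, 3847, 2882 and 245 CPM and rose 10.03-fold (log2 3.33 ± 0.64, SE, adjusted p = 0.0154). Jchain, which joins IgM and IgA into polymers, had 16.7 to 33.7 CPM against 46.6, 260, 426, 362 and 40.6 CPM and rose 8.73-fold (adjusted p = 0.0176). The light chain gene Igkc and the B cell transcription coactivator gene Pou2af1 both rose 8.12-fold (adjusted p = 0.0154 and 0.019). Jchain, Igkc and Pou2af1 lost their calls without 12-week mouse 4 (adjusted p = 0.0576, 0.0524 and 0.0597).

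Sdc1, a surface proteoglycan of plasma cells that epithelium expresses too, had 17.1 to 22.998 CPM against 24.5 to 33.8 CPM and rose 1.55-fold (adjusted p = 0.0104). The B cell receptor gene Cd79b rose 7.46-fold (0.520 to 1.29 CPM against 1.58, 5.59, 6.99, 19.5 and 1.38 CPM, adjusted p = 0.0318), lost without any single mouse except 32-week mice 1 and 5 (adjusted p up to 0.0868). Mzb1 had 0.643 to 1.15 CPM against 1.88, 5.74, 8.95, 9.27 and 0.913 CPM (adjusted p = 0.021) and lost its call without 12-week mouse 2, 4 or 5 (up to 0.0631). Of 214 immunoglobulin variable segments 90 were tested, all 90 had a positive change and 29 rose, with a median log2 change of 2.996. Segments that passed the count filter only through the 32-week mice are positive by selection. The shared sign and the median are therefore partly set by the filter. These segments are near copies of each other, so the count of a single segment is uncertain. The number of B cell genes that rose was 2, 5, 6, 6 and 6 without 12-week mouse 4, 2, 1, 3 or 5 and 6, 7 and 6 without 32-week mouse 2, 3 or 4, and that of segments was 11 to 15 without any single one of these mice and 50 without 32-week mouse 1.

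**Figure D4:**
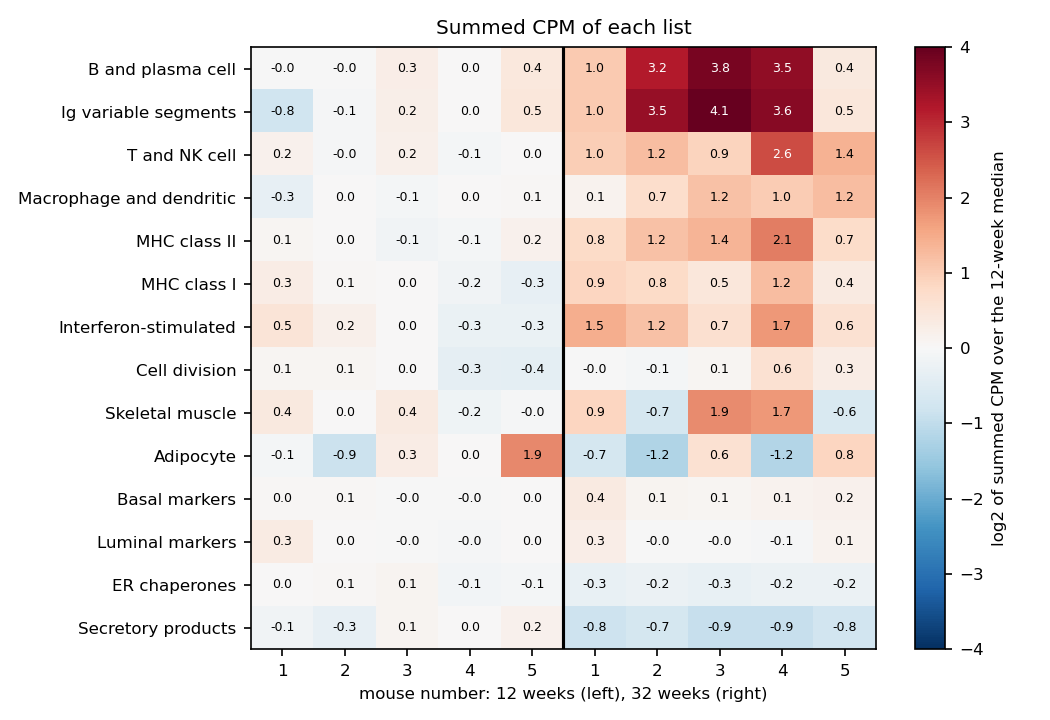
Each cell gives the log2 of a list's summed CPM in 1 SO mouse over the median of the 5 mice at 12 weeks, for mice 1 to 5 at 12 weeks (left of the line) and at 32 weeks (right). B cell and variable segment lists reach 3.2 to 4.1 in 32-week mice 2, 3 and 4 but 0.4 to 1.0 in mice 1 and 5, interferon-stimulated genes are highest in mice 4, 1 and 2, and the chaperone list and the secretory list, most of whose sum is Sbp, are below 0 in all 5 mice at 32 weeks.

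Macrophage and dendritic cell genes rose by less and in more of the mice. The summed level was 251 to 330 CPM at 12 weeks and 349, 515, 717, 640 and 742 CPM in 32-week mice 1 to 5, without overlap, and mouse 1 was closest to the 12-week mice. Of 28 listed genes 27 were tested, 15 rose and none fell, with a median log2 change of 1.07. Fcgr1, a high-affinity receptor for IgG, had 0.891 to 1.79 CPM against 2.46 to 5.57 CPM and rose 3.12-fold (adjusted p = 0.009). C1qb, a chain of the complement recognition protein C1q that tissue macrophages make, had 22.1, 20.5, 19.6, 19.04 and 22.4 CPM against 31.0, 38.6, 58.4, 52.9 and 36.9 CPM and rose 2.10-fold (log2 1.07 ± 0.16, SE, adjusted p = 0.009). Clec7a, the receptor for fungal glucans, rose 4.39-fold, the fractalkine receptor gene Cx3cr1 2.40-fold, the lysosomal marker Cd68 2.34-fold and the integrin gene Itgax 2.84-fold (adjusted p = 0.009, 0.009, 0.0124 and 0.0095).

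The macrophage marker Adgre1 rose 2.37-fold (4.38 to 7.99 CPM against 8.02 to 21.6 CPM, adjusted p = 0.0209), a call lost without 12-week mouse 4 (adjusted p = 0.0574). Csf1r, the receptor that macrophages need to survive, rose 1.71-fold (adjusted p = 0.0416), lost without 12-week mouse 1, 2, 3 or 4 or 32-week mouse 2, 3 or 4 (up to 0.0941). Its ligand gene Csf1 rose 1.37-fold (13.7 to 17.6 CPM against 19.9 to 22.01 CPM, adjusted p = 0.0106). The number of macrophage and dendritic genes that rose was lowest without 12-week mouse 4, at 9. Of 23 granulocyte and mast cell genes 7 were tested and 2 rose, Csf3r and Prg2, both below 5 CPM in every mouse and both lost without 12-week mouse 4 (adjusted p up to 0.0875 for Csf3r, which was also lost without the other 12-week mice and 32-week mice 2, 3 and 4).

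Antigen presentation rose in both classes. In class II, which shows peptides to helper T cells, 8 of 11 tested genes rose and the summed level was 244 to 302 CPM at 12 weeks and 451, 601, 684, 1115 and 441 CPM at 32 weeks. Ctss, the protease that trims the class II invariant chain, had 22.5, 20.96, 22.9, 21.4 and 21.1 CPM against 43.1, 60.02, 60.1, 98.7 and 88.0 CPM. The 12-week mice were almost equal and every 32-week mouse was well above them, and Ctss rose 3.22-fold (log2 1.69 ± 0.19, SE, adjusted p = 0.00574). H2-Eb1, a class II beta chain, rose 2.53-fold (37.6 to 48.3 CPM against 63.4 to 189 CPM, adjusted p = 0.014). H2-Aa and the invariant chain gene Cd74 rose 2.54-fold and 2.27-fold (adjusted p = 0.0167 and 0.0157), both lost without 12-week mouse 4 (0.0549 and 0.0531). Without that mouse 2 class II genes rose, and 5 without 12-week mouse 3.

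In class I, which shows peptides to cytotoxic T cells, 13 of 21 genes rose with a median log2 change of 0.80. H2-Q7 had 15.7, 12.0, 10.7, 7.47 and 11.2 CPM against 55.6, 66.2, 34.5, 142 and 32.1 CPM and rose 5.79-fold (adjusted p = 0.00994), with H2-Q6 at 5.72-fold. The H2-Q genes are close copies, so the split of reads between them is uncertain. Nlrc5, the regulator of class I genes, had 5.11 to 10.8 CPM against 16.3 to 46.1 CPM and rose 3.64-fold (adjusted p = 0.0106), and the immunoproteasome subunit gene Psmb8 rose 1.88-fold (adjusted p = 0.0117). The abundant B2m and H2-K1 rose 1.81-fold and 1.89-fold (adjusted p = 0.0423 and 0.0228). B2m was lost without any 12-week mouse or without 32-week mouse 2 or 4 (adjusted p up to 0.0974) and H2-K1 without 12-week mouse 2, 3, 4 or 5 or 32-week mouse 4 (up to 0.068). The count of 13 became 5 to 8 without 12-week mouse 2, 3, 4 or 5 or 32-week mouse 2, 3 or 4.

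Among chemokines and their receptors 18 of 43 tested genes rose. Ccl8, which attracts monocytes and eosinophils, had 1.91, 2.31, 1.22, 1.93 and 1.06 CPM against 4.24, 21.6, 38.2, 23.4 and 4.596 CPM and rose 10.9-fold (log2 3.45 ± 0.61, SE, adjusted p = 0.0118). The highest mice for Ccl8 were 2, 3 and 4, those with the most B cell RNA. The mucosal chemokine gene Cxcl17 rose 1.91-fold (adjusted p = 0.0115). Cx3cl1, the fractalkine gene and one of the most abundant on the list, was not called (fold 0.942, adjusted p = 0.707). The count of 18 was 7, 8 and 8 without 12-week mouse 4, 3 or 5, 12 without 12-week mouse 2 or 32-week mouse 5 and 10 without 32-week mouse 2 or 4.

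Of 31 cytokine and inflammasome genes 10 rose. Gsdmd, which encodes the pore-forming gasdermin D, had 12.7 to 15.3 CPM against 19.6 to 21.8 CPM and rose 1.52-fold (adjusted p = 0.00688). Casp4 and Nlrp1b, a caspase that cleaves it and an inflammasome sensor, rose 2.82-fold and 2.50-fold (adjusted p = 0.0105 and 0.0114). Of 28 complement genes 9 rose, among them the anaphylatoxin receptor gene C3ar1 (3.25-fold, adjusted p = 0.0095) and the lectin pathway protease gene Masp1 (1.97-fold, adjusted p = 0.0095). C3 had 47.5 to 127 CPM against 64.4, 253, 450, 309 and 64.3 CPM and was not called (adjusted p = 0.117). With single mice left out, 7 to 17 cytokine and inflammasome genes and 7 to 15 complement genes rose, the most without 32-week mouse 1.

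Of 12 Toll-like receptor genes 5 rose and none fell. Tlr13, a sensor of bacterial ribosomal RNA, had 0.748 to 1.15 CPM against 1.42 to 4.74 CPM and rose 3.57-fold (adjusted p = 0.0095). Tlr8, Tlr1 and Tlr7 rose 3.28-fold, 3.31-fold and 2.73-fold (adjusted p = 0.0174, 0.0214 and 0.0219). Tlr2, which senses bacterial lipoproteins, rose 1.47-fold (adjusted p = 0.0227) and lost its call without 12-week mouse 4 or 5 or 32-week mouse 2, 3 or 4 (up to 0.0636). Tlr8 was lost without 12-week mouse 4 (adjusted p = 0.0578), Tlr1 without 12-week mouse 3, 4 or 5 (0.0544, 0.0603 and 0.056) and Tlr7 without 12-week mouse 3 or 32-week mouse 3 (0.0546 and 0.0501). The count of 5 was 2 without 12-week mouse 4 and 3 without 12-week mouse 3 or 5 or 32-week mouse 3.

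Interferon-stimulated genes rose in 37 of 48 tested cases and none fell. The median log2 change was 1.23 (1.42 with total counts). Their summed level was 1144, 920, 799, 671 and 667 CPM in 12-week mice 1 to 5 and 2191, 1819, 1259, 2681 and 1233 CPM in 32-week mice, so that the lowest 32-week mice were just above the highest 12-week mouse. Oas3 (ENSMUSG00000032661; chromosome 5, 120753098 to 120777661), which makes the 2′-5′ oligoadenylates that activate RNase L, had 1.003, 0.770, 0.460, 0.398 and 0.230 CPM against 8.99, 8.28, 3.07, 16.3 and 2.68 CPM. It rose 13.7-fold (log2 3.78 ± 0.57, SE, adjusted p = 0.009), and its neighbour and relative Oas2 rose 12.0-fold (2.02 to 4.19 CPM against 9.16 to 92.1 CPM, adjusted p = 0.00997). Trim30a, a regulator of the inflammatory response, rose 3.46-fold (7.25 to 11.7 CPM against 19.8 to 55.9 CPM, adjusted p = 0.009). Ddx58, the RNA sensor RIG-I, had 16.0 to 28.4 CPM against 34.0 to 73.9 CPM and rose 2.30-fold (adjusted p = 0.0138).

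Ifit3, which binds viral RNA complexes, had 21.6, 15.6, 10.02, 7.07 and 6.41 CPM against 85.1, 32.1, 24.2, 71.1 and 34.2 CPM and rose 4.07-fold (adjusted p = 0.0218). It was lost without 12-week mouse 3, 4 or 5 (0.0592, 0.0631 and 0.0555). Oas1a rose 2.56-fold (7.13 to 19.5 CPM against 17.7 to 41.6 CPM, adjusted p = 0.0252), lost without 12-week mouse 3, 4 or 5 or 32-week mouse 2 or 4 (up to 0.0702). Stat2, a subunit of the factor through which type I interferons act, rose 1.58-fold (adjusted p = 0.0462), lost without 12-week mouse 2, 3, 4 or 5 or 32-week mouse 1, 2 or 4 (up to 0.118). The count of 37 was 9, 13 and 15 without 12-week mouse 4, 3 or 5, 21 without 32-week mouse 4 and 24 without 32-week mouse 2.

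The promoters of 3 of these genes are shown because they carry the core of the element through which interferons act, GAAANNGAAA (ISRE), searched on both strands of the same 250 bases, where 936 of 27025 genes hold it (3.46%). Only 35 of the 49 listed interferon-stimulated genes and 589 of the 848 genes that rose have a window, so the share with a match is not reported here for either. Capitals mark the matches, which start 75 bases before the start of Oas3, 20 and 14 (overlapping) before that of Oas1a, and 156 and 122 before that of Ifit3, where they lie on the other strand.
Oas3, chr5:120777660-120777909, minus strand: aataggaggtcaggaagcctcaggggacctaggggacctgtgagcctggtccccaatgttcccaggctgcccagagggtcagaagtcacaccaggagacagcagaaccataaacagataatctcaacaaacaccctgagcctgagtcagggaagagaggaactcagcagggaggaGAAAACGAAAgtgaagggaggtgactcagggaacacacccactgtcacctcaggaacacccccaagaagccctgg
Oas1a, chr5:120907526-120907775, minus strand: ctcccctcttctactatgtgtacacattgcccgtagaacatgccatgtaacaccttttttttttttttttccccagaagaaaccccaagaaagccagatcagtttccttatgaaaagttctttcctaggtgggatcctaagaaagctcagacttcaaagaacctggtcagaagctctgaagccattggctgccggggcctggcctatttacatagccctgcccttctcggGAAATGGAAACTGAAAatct
Ifit3, chr19:34583279-34583528, plus strand: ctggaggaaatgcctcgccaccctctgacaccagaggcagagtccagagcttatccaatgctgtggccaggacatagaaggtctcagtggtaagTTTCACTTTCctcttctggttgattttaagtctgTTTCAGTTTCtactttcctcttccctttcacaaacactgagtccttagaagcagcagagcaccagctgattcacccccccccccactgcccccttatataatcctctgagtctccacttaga

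A cluster of secretoglobin genes on chromosome 7, between 31290508 and 34100837, rose as well. Secretoglobins are small secreted proteins, several of which bind androgens in saliva. Of the 27 Scgb genes of the cluster 10 were tested, 7 rose and none fell, beside 5.43% of all genes that rose. The cluster was not among the gene lists, and Scgb2b12 and Scgb2b7 are among the 12 largest rises named above. The count of 7 thus includes genes picked for their rise and is a description only. Scgb2b12 had 2.51, 0.893, 3.94, 0.796 and 0.661 CPM against 14.8, 33.0, 16.6, 39.8 and 11.8 CPM and rose 13.3-fold (log2 3.73 ± 0.56, SE, adjusted p = 0.009). Scgb2b7, the most abundant, had 47.0, 16.9, 71.1, 13.9 and 13.1 CPM against 118, 284, 179, 538 and 82.3 CPM and rose 7.42-fold (adjusted p = 0.0246). At both ages the mice differed several-fold, and those high for one of these 2 genes were high for the other. The genes are near copies, so their reads may have been split or set aside, and single values are uncertain. Scgb2b12 and Scgb2b19 (8.32-fold, adjusted p = 0.0135) held with any 1 mouse left out. Scgb2b19 had a median of 0.1 CPM at 12 weeks and 0.753 CPM at 32 weeks. It passed the count filter mainly through the 32-week mice, which favours a rise. Scgb1b7 was also low at 12 weeks (median 0.216 CPM, against 1.656 CPM at 32 weeks), and the same may hold for it. Scgb2b7 was lost without 12-week mouse 2, 4 or 5 (adjusted p = 0.0569, 0.0657 and 0.0593) and the other 4 without at least 1 mouse (up to 0.107).

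Few genes of the epithelium and stroma lists were called, and these counts are to be read beside the 5.43% of all genes that rose and the 1.24% that fell. Of 24 androgen-responsive genes 1 rose (Steap4, 1.80-fold) and 1 fell (Abcc4, fold 0.854). Probasin (Pbsn), which is secreted mainly by other lobes, ranged from 343 to 4212 CPM at 12 weeks and from 1911 to 6668 CPM at 32 weeks (adjusted p = 0.663). The luminal keratin Krt18 had a fold of 0.870 (adjusted p = 0.306).

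Of 13 basal markers 2 rose, the keratin gene Krt15 (34.0 to 46.1 CPM against 49.0 to 80.8 CPM, 1.66-fold, adjusted p = 0.0118) and the transcription factor gene Trp63 (1.36-fold, adjusted p = 0.0276). Krt5 had a fold of 1.38 and was not called (adjusted p = 0.138). Of the 13, 12 had a positive change (median log2 0.38), and their summed level of 612 to 645 CPM at 12 weeks and 661 to 794 CPM at 32 weeks did not overlap. None of 38 collagen genes, 46 other matrix genes or 20 smooth muscle genes was called. Among 18 fibroblast markers Thy1 and Ly6a rose, and Ly6a, the stem cell antigen Sca-1 that interferons also induce, had 35.2 to 54.8 CPM against 102 to 242 CPM (3.47-fold, adjusted p = 0.00628). Endothelial Vwf and Emcn (2 of 16 markers), Mmp14 (with Adamts8 falling, of 33 genes) and the muscle gene Actn3 (1 of 11) rose between 1.47-fold and 2.61-fold, and the urothelial gene Upk1a, which the VP expresses at 190 to 616 CPM, fell (fold 0.578, adjusted p = 0.0321). Of the 16 endothelial markers 14 had a positive change (median log2 0.23), with summed levels of 102 to 119.7 CPM against 114 to 155 CPM. Of the 12 called genes named from these lists Krt15 and Ly6a held with any 1 mouse left out. The other 10 were lost, at adjusted p-values up to 0.114, without a 12-week mouse (9, 7, 9, 9 and 8 lost without mice 1 to 5) or without 32-week mouse 2, 3, 4 or 5 (4, 8, 9 and 6).

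No gene was called among 87 cytosolic and 76 mitochondrial ribosomal protein genes, 76 nuclear-encoded and 12 mitochondrial genes of oxidative phosphorylation, 26 genes of fatty acid synthesis, 24 of cholesterol synthesis, 19 of the insulin-like growth factor axis, 20 of polyamine metabolism, 30 heat-shock proteins and 7 globins and red cell genes. Their median log2 changes lay between −0.23 and 0.07. In total-count scaling the medians of the ribosomal, oxidative phosphorylation, lipid, polyamine and heat-shock lists turned positive. Cell division genes had positive changes in 50 of 53 cases with a median of 0.45, but only Mcm4 and Mcm6, subunits of the replicative helicase, rose (1.31-fold and 1.47-fold). This is 3.77% beside 5.43% of all genes. Mki67 ranged from 8.88 to 27.7 CPM at 12 weeks and from 21.4 to 55.8 CPM at 32 weeks (adjusted p = 0.346). With total counts 18 of the 53 rose, and none was called without 12-week mouse 3, 4 or 5 or 32-week mouse 2, 3, 4 or 5.

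Of 23 genes of eicosanoid synthesis 3 rose (13.0%, beside 5.43% of all genes). They were the prostaglandin D synthase gene Hpgds (1.47 to 2.30 CPM against 2.36 to 6.11 CPM, 2.48-fold, adjusted p = 0.0138), the thromboxane synthase gene Tbxas1 (1.95-fold) and the phospholipase gene Pla2g2d (2.52-fold). The median log2 change of this list was 0.14 in SO, 0.24 in LO and 0.14 in PF mice. Of 39 targets of PPAR and fatty acid oxidation 1 fell (Eci1, fold 0.854), which is 2.56% beside 1.24% of all genes. The vitamin D receptor gene Vdr rose 1.74-fold (5.89 to 7.33 CPM against 9.09 to 13.7 CPM, adjusted p = 0.0106). It is 1 of 2 nuclear receptor genes of 38 that rose, with the clock repressor gene Nr1d2 (1.21-fold), a share of 5.26% beside 5.43% of all genes. Npas2 and Bhlhe40 rose with Nr1d2 among 22 clock genes (1.65-fold and 1.47-fold), Egr2 and Socs3 among 25 immediate early genes (2.605-fold and 1.72-fold), Gpx2 and Gsta4 among 48 antioxidant genes (2.05-fold and 1.39-fold), where Gpx8, a peroxidase of the ER, fell (fold 0.753, adjusted p = 0.0191), and Plaur, with Ccl8, among 17 senescence genes (2.06-fold). The shares that rose were 13.6% of the clock, 8% of the immediate early, 4.17% of the antioxidant and 11.8% of the senescence genes, beside the same 5.43%. Of the 16 genes called in these metabolic and regulatory lists (Ccl8 aside, Mcm4 and Mcm6 included), Hpgds, Vdr and Gpx8 held with any 1 mouse left out. The other 13 were lost, at adjusted p-values up to 0.106, without a 12-week mouse (6, 10, 9, 12 and 11 lost without mice 1 to 5) or without 32-week mouse 2, 3, 4 or 5 (8, 12, 10 and 8).

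The LO and PF mice, which share no animals with the SO mice, show whether the same genes moved on the other diets. In LO mice 448 of 16605 genes (2.7%) were called between the 2 times, 289 higher and 159 lower, and in PF mice 5 genes (0.0301%), 3 higher and 2 lower. Of the 848 genes that rose in SO mice, 819 (96.6%) had a positive change in LO, where 47.8% of all genes did, with a median log2 change of 0.72 against 1.28 in SO, and 123 were called. In PF 576 of them (67.9%) had a positive change, beside 50.7% of all genes, with a median of 0.11, and 1 was called. Of the 194 that fell, 192 (99.0%) were below 0 in LO and 165 (85.1%) in PF, with medians of −0.28 and −0.14, and 51 and 0 were called. The genes were chosen for their change in SO, so a larger change there than elsewhere is built in.

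The lists did not keep the same order in the 3 diets. B cell genes had medians of 2.90 in SO, 2.45 in LO and 0.32 in PF, and variable segments 2.996, 3.97 and 1.26. Interferon-stimulated genes had 1.23 in SO, 0.13 in LO and −0.42 in PF. The summed interferon-stimulated level ran from 671 to 1147 CPM in SO mice at 12 weeks, from 832 to 3267 in LO and from 785 to 2347 in PF, and at 32 weeks from 1230 to 2668 in SO, from 876 to 2165 in LO and from 1017 to 1771 in PF, with all 30 mice scaled together, and these ranges overlap between the diets. Oas3 was at 19.5 CPM in 1 LO mouse at 12 weeks, above every SO mouse at 32 weeks. For T and NK cell genes the ranges at 12 weeks were 19.8 to 24.2 CPM in SO, 21.2 to 47.0 in LO and 25.8 to 46.9 in PF.

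**Figure D5:**
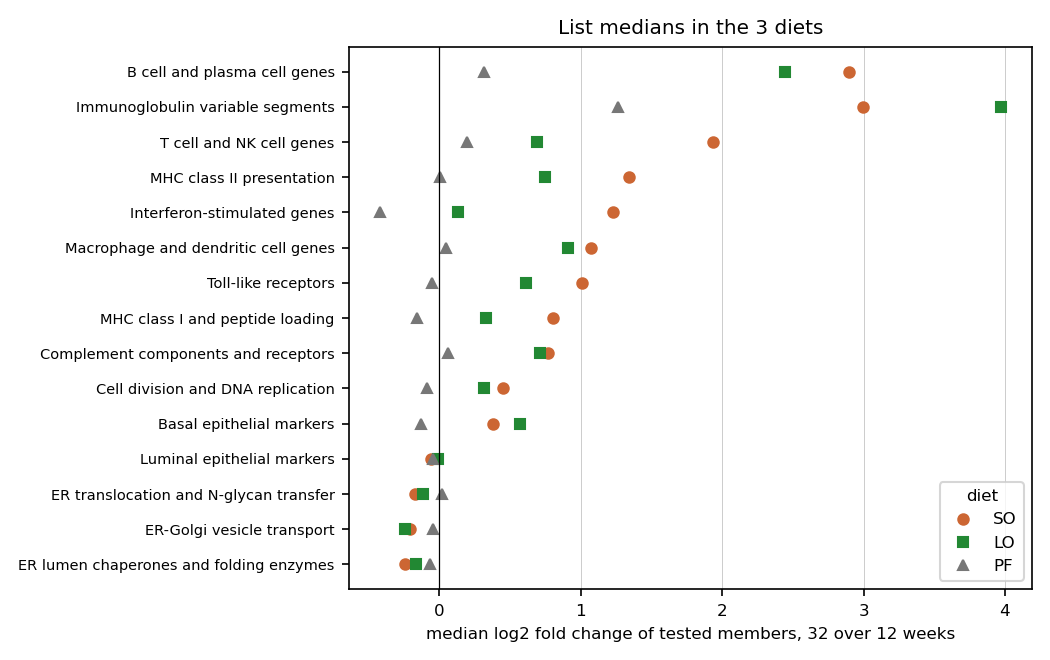
Points give the median log2 fold change (32 over 12 weeks) of the tested members of each list in SO (circles), LO (squares) and PF mice (triangles), all from 1 fit of 30 mice for LO and PF and from the 10 SO mice for SO. For interferon-stimulated genes the medians are 1.23, 0.13 and −0.42, and for ER-Golgi transport −0.21, −0.24 and −0.04.

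The difference itself was tested in all 30 mice as the change in SO minus the mean of the changes in LO and PF. By edgeR no gene of 16605 passed (0.0%), with adjusted p-values from 0.525 upward, although 993 were under 0.05 before adjustment, and DESeq2 called 1 gene, Xlr4b (adjusted p = 0.0427). The 6 genes with the smallest p-values in edgeR were Havcr2, Xlr4b, Cd3d, Runx3, H2-Q7 and Itgax. Havcr2, the checkpoint receptor TIM-3, rose 2.82-fold in SO (0.518 to 1.08 CPM against 1.39 to 3.10 CPM, adjusted p = 0.0119), with log2 changes of 0.36 ± 0.24 in LO and −0.16 ± 0.24 in PF, and its difference was 1.38. For H2-Q7 the log2 changes were 2.53, 1.125 and −0.47, for Cd3d 3.89, 1.001 and 0.46 and for Itgax 1.505, 0.59 and −0.27. Runx3, a transcription factor of cytotoxic T cells, rose 2.91-fold in SO, lost without 12-week mouse 4 (adjusted p = 0.0596). Xlr4b rested on 32-week mice 2 and 3 (5.41 and 6.19 CPM, against 0.201 to 1.20 CPM in the other 8) and was lost without either of them or any 12-week mouse (adjusted p up to 0.0929). The falls of Sbp (log2 −0.81 ± 0.22 in LO, −0.17 ± 0.22 in PF), Trpv6 (−0.88 and −0.73), Kel (−1.09 and −0.71) and Plagl1 (−0.79 and −0.61) and the rises of Entpd8 (2.25 and 0.68) and Scgb2b12 (2.57 and 3.26) had the same sign in both other diets. None of them differed between SO and the others by the test, which does not show that the changes were alike.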

How the data were processed

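The study sequenced ventral prostate RNA from 5 mice per diet and time with a stranded mRNA kit. The deposited files hold raw counts per Ensembl gene, made by the authors with TopHat2 and HTSeq on GRCm38.p6 per the labels. Versions, strand setting and annotation release are not given in the sources used here, and symbols and positions come from GENCODE M21. Lines that name no gene were left out.

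Counts of the 10 SO mice were fitted with edgeR 4.0.16 (R 4.3.3, TMM scaling, filterByExpr, quasi-likelihood test, Benjamini-Hochberg over 15605 genes, threshold 0.05). SE is the log2 change over the square root of F. All 30 mice entered the test between diets. Alternatives were DESeq2 1.42.0, other scalings and filters, robust fitting, a replicate block and leaving out mice. Tested on simulated data, the fit found 88 of 100 changes of 1 (log2) and 99 of 100 of 2, and 13 of its 200 calls (6.5%) were false. The simulated counts had a spread set by mean level alone and no outlying mice. Changes were placed only in genes over 2 CPM, with equal numbers up and down. These shares therefore need not hold for the real calls.

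The mice and gene lists were chosen with earlier results of these data known. The rule for named genes took, per list, up to 4 called members per direction with the smallest adjusted p, the 2 most abundant, and defining markers that were absent or not called. Over all genes it took the 12 largest changes each way (called, mean of 2 CPM or more, no overlap, leaving out Gm and Rik models and immunoglobulin and T cell receptor segments), the 6 smallest p-values each way, the 6 smallest for the difference between diets, and the 10 most abundant. Not every gene it selects is described, and some genes are not reported here. Motifs were searched in RefSeq windows of 250 bases.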

Additional observations from a re-analysis of the deposited data

Results flagged for a closer look

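Values of 1 mouse that stood apart from the other 4 mice of its time were sought in 412 groups (the named genes, list sums and library measures at each time), by a gap to the nearest mouse of more than 0.71 of the group's range. Chance alone gives about 1 in 20 such groups, and 35 groups (8.495%) were found. No explanation was tested for any of them.

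In 32-week mouse 4 the summed T cell and NK cell genes were at 129.0 CPM (others 38.89 to 55.48), Cd3d at 4.817, Cd3e at 4.426, Ms4a4b at 10.99, Nlrc5 at 46.1, Pla2g2d at 10.42, Mki67 at 55.82 and heat-shock proteins at 4034 CPM. All of these were the highest values of their group. In 32-week mouse 5, Gm42418 took 2.679% of the counts (25890 CPM), Clu was at 965.5, Noxa1 at 8.103 and the cytokine and inflammasome list at 578.4 CPM, again all highest.

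In 32-week mouse 1 the highest values were those of Hyou1 (329.7 CPM), Kel (16.2), Id4 (16.85), basal markers (793.8), smooth muscle genes (6184) and globins (102.1). In 32-week mouse 2, Sdc1 was lowest at 24.54 CPM. In 32-week mouse 3, Vwf (15.51) and the matrix list (3069) were highest and cholesterol synthesis lowest (791.9 CPM).

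At 12 weeks, mouse 3 held the highest 9530053A07Rik (204.4 CPM), Tgm4 (86.93) and Myh4 (9.86), and mouse 5 the highest Adipoq (69.99) and fat cell list (1349) and the lowest Nlrp1b (0.4888). Mouse 1 was highest for luminal markers (5830), Nlrc5 (10.8) and H2-K1 (721.2) and lowest for Adgre1 (4.379 CPM). Cxcl17 was highest in mouse 2 (36.88) and Clec7a in mouse 4 (2.418 CPM).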

How the results depend on the processing

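The counts of genes that rose and fell (848 and 194) were 2856 and 38 with total-count scaling, 1334 and 537 with DESeq2, 821 and 129 without a filter on low counts, 903 and 328 with a replicate block, and 1239 and 432 at an adjusted p under 0.1. Other scalings, a mean of 2 CPM, robust fitting and a fit of all 30 mice kept both counts within 1.5 times. Leaving out each mouse in turn gave 320 to 1266 genes that rose and 56 to 474 that fell, the extremes being without 12-week mouse 4 and without 32-week mouse 1. Alternatives chosen after seeing the data were the fit without both mice numbered 1 (1083 and 343) and that without 12-week mouse 3 and 32-week mouse 5 (356 and 26). For the difference between diets DESeq2 called 1 gene where edgeR called 0.

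Mice with the same number at 12 and 32 weeks are different animals. Their deviations correlated at 0.581, 0.254, 0.175, −0.0196 and −0.0325 for mice 1 to 5, and 2 of 5 were most like their own number. As not every correlation was over 0.1, the mice were not treated as paired. Of 135 called genes named in the text, none reversed under any alternative and 63 kept their call with any 1 mouse left out. The numbers that lost it were 24 with total counts, 17 without a filter, 10 at a mean of 2 CPM, 2 with robust fitting, 1 with TMM factors taken without the 10 largest genes, 0 with RLE scaling, 11 with the replicate block, 0 with DESeq2 and 33 in the fit of all 30 mice. A called gene that an alternative did not test, or to which it gave no adjusted p, was not counted as losing its call. DESeq2 gave no adjusted p for 9530053A07Rik, and the filter at a mean of 2 CPM removes low genes such as Cd3d. These numbers may therefore be too low. The cause of the losses was not tested. At these depths levels under 1 CPM rest on few counts.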
